A study of Bos taurus with 12 samples.

Results

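Muscle cells buffer and move high-energy phosphate through creatine kinase and adenylate kinase, and they need creatine to do so. The transcripts of 8 genes of this system were followed in the right ventricle, which drives blood through the lungs, of Angus steers living at high altitude. CKM, CKMT2 and CKB encode creatine kinases, AK1 an adenylate kinase, SLC25A4 the muscle carrier that exchanges ADP for ATP across the inner mitochondrial membrane, GATM and GAMT the enzymes of creatine synthesis, and SLC6A8 the creatine transporter of the cell surface. The genes were chosen by name for these roles. Each symbol stands once in the table, so that they are 8 of its 24616 genes, and all 8 are among the 11374 genes kept for testing (at least 1 RPKM in at least 3 libraries). RPKM are read counts scaled to exon length and library depth, so that levels can be set beside each other between genes.

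The 12 right ventricles came from 3 steers with pulmonary hypertension and right heart failure (PH-failure), 3 with pulmonary hypertension that were clinically healthy (PH-healthy) and 6 that kept a low pulmonary arterial pressure (low PAP). The classes had been set from repeated catheter measurements of pulmonary arterial pressure and from clinical signs. All 12 animals carry the genotype label WT. They were male calves castrated and weaned at 6 to 8 months, fed grass hay with grain at 2170 m (7120 ft), and slaughtered at 13 to 15 months. The thin air of that elevation was shared by all groups, so low PAP is not a group at normal oxygen. Each library is a different animal. RNA was extracted from whole tissue.

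Creatine kinase transfers a phosphate group between ATP and creatine in both directions. The mitochondrial enzyme, encoded in heart muscle by CKMT2, lies outside the inner membrane, where ATP delivered by the ADP/ATP carrier is used to make phosphocreatine. The cytosolic enzyme, built from muscle (CKM) and brain-type (CKB) subunits, restores ATP from phosphocreatine beside the myofibrils and ion pumps. Adenylate kinase 1 makes ATP and AMP from ADP, and the AMP in turn acts on the energy sensor AMPK. Creatine is made from arginine and glycine by GATM and then methylated by GAMT. In mammals this takes place largely in kidney and liver, and muscle takes creatine up from the blood through SLC6A8. A low creatine kinase capacity is a well-known feature of failing hearts in other species.

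The libraries held 14739237 to 31090198 mapped reads, as recovered from the steps between values. Of the 8 genes, CKM had 40726 to 166755 reads per library, and the lowest count of any was 101 reads for CKB in PH-failure replicate 3. Heart muscle markers (11 of 12 listed genes present in the table) summed to 52587 to 82478 RPKM in PH-failure, 75051 to 83145 RPKM in PH-healthy and 69792 to 90500 RPKM in low PAP. Of the 9 skeletal muscle markers in the table, 3 (MYH1, MYOD1 and MYOG) were below 0.1 RPKM in every library. TNNT3 and TNNC2 of that list were above 0.1 RPKM in every library. The 9 markers summed to at most 4.611 RPKM in PH-failure, 2.395 RPKM in PH-healthy and 4.429 RPKM in low PAP. PH-failure replicate 3 stands apart. It had the lowest heart muscle sum and the highest sums of the adipocyte (1606 RPKM), macrophage (199 RPKM) and red blood cell markers (70.1 RPKM) of the 12 libraries. In the other 11 libraries these sums were 318 to 609 RPKM, 51.8 to 124 RPKM and 1.80 to 9.30 RPKM. The test values of the called genes are therefore also given without it. The labels further divide the libraries into series 56 (2 PH-failure, 1 PH-healthy, 3 low PAP) and series 55 (1 PH-failure, 2 PH-healthy, 3 low PAP).

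In the low-PAP ventricle CKM and SLC25A4 ranked 24 and 25 of the 11374 tested genes by mean level, CKMT2 ranked 115 and AK1 640. The order of mean levels in low PAP was CKM (3136 RPKM), SLC25A4 (3062 RPKM), CKMT2 (799 RPKM), AK1 (104.7 RPKM), GAMT (26.3 RPKM), SLC6A8 (13.7 RPKM), CKB (8.56 RPKM) and GATM (3.87 RPKM). CKM and SLC25A4 did not differ beyond their spread, and CKM was the higher of the pair in 3 of 6 libraries. The 4 most abundant genes otherwise kept clear gaps, whereas below them each neighbour in the order (GAMT and SLC6A8, SLC6A8 and CKB, CKB and GATM) had overlapping ranges. The PH-failure means of the creatine supply genes lay closer together, at 17.4 RPKM for GAMT, 17.1 RPKM for SLC6A8 and 8.67 RPKM for GATM. In PH-healthy these means were 17.5, 20.2 and 9.21 RPKM. The single PH-failure libraries differed, with 25.2, 13.6 and 5.37 RPKM in replicate 1 and 7.96, 19.2 and 12.9 RPKM in replicate 3.

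**Figure D1:**
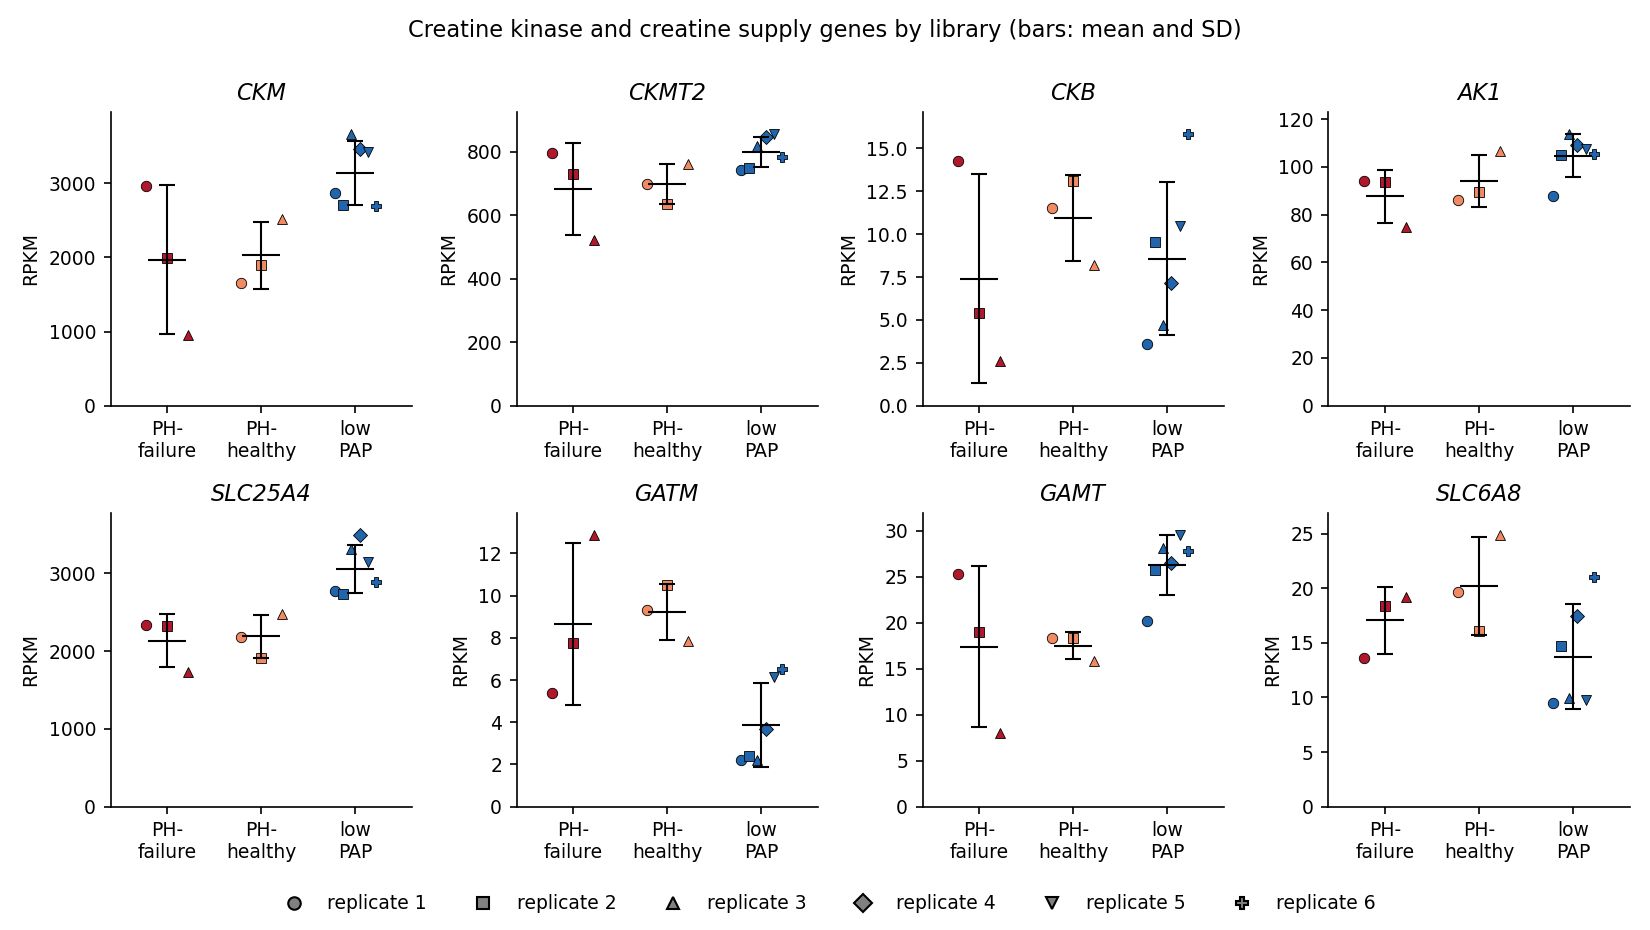
RPKM of the 8 genes in each library, with PH-failure, PH-healthy and low PAP from left to right. Points are animals, their shapes mark the replicate number, and bars are mean and SD (n = 3, 3 and 6). PH-failure replicate 3 (triangle) is the lowest of the 12 libraries for 6 genes and the highest for GATM.

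PH-failure was first set against low PAP, which asks how these transcripts differed in animals with right heart failure. CKM, GAMT and SLC25A4 fell and GATM rose in PH-failure, while CKMT2, CKB, AK1 and SLC6A8 did not pass the test (limma on log2(RPKM + 1), Benjamini-Hochberg adjusted p under 0.05 over all tested genes). The 4 called genes are 1 higher and 3 lower of 8, where 33.8% of all tested genes were called, 28% higher and 5.79% lower. By the ranges alone, 1 of the 8 had PH-failure and low-PAP libraries that did not overlap, as was so for 22.3% of all tested genes. None of the 4 calls held without PH-failure replicate 3, where 1540 of all 11374 tested genes were called, against 3848 with it. In PH-healthy against low PAP, GATM rose and SLC25A4 fell, so that 2 of 8 passed, against 34.7% of all tested genes (26.6% higher and 8.15% lower). That share is not above the background. The libraries of PH-healthy and low PAP did not overlap for 4 of the 8, 1 higher and 3 lower, against 34.3% of all tested genes (25% higher and 9.3% lower). Both comparisons use the same 6 low-PAP libraries. The log2 scale with 1 added understates changes of genes with low values.

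CKM, the muscle subunit of cytosolic creatine kinase (ENSBTAG00000013921, chromosome 18, 53383534 to 53392948), had levels of 2967, 1989 and 952 RPKM in the 3 PH-failure hearts, in the order of the replicate numbers kept below. The 3 PH-healthy hearts had 1652, 1904 and 2523 RPKM. In low PAP it ran from 2699 over a median of 3144 to 3666 RPKM. All PH-healthy libraries lay below all low-PAP ones, whereas PH-failure replicate 1 lay inside the low-PAP range and replicate 3 at less than any other library. The mean was 1969 ± 1007 RPKM in PH-failure and 3136 ± 429 RPKM in low PAP (SD, n = 3 and 6), a log2 fold change of -0.81 ± 0.28 (SE, limma adjusted p = 0.0400). Without PH-failure replicate 3 it was -0.36 (adjusted p = 0.212, the highest over its 19 alternatives, which began at 0.00592). The CKM call was also lost without PH-failure replicate 2 (-0.89), PH-healthy replicate 2 (-0.81) or low-PAP replicate 1 (-0.83), 3 (-0.76), 4 (-0.78) or 5 (-0.78), each time at a limma adjusted p of 0.0513 to 0.0750. With all libraries it was lost with no filter on low values, after quantile normalization and with the replicate number as a block. It was kept by 9 of the 19 alternatives. PH-healthy averaged 2026 ± 448 RPKM, a log2 fold change against low PAP of -0.64 ± 0.28 that did not pass (adjusted p = 0.0862). CKM alone took 0.354 ± 0.177% of exon reads in PH-failure, 0.369 ± 0.0817% in PH-healthy and 0.563 ± 0.0732% in low PAP.

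In whole tissue, fewer muscle cells and less RNA per muscle cell cannot be told apart. Of the 11 tested heart muscle markers, 1 was called higher and 2 lower in PH-failure, and 2 and 2 in PH-healthy. Their median log2 fold changes were -0.15 and 0.07, beside 0.21 and 0.18 for all tested genes. After median-ratio scaling the counts were 0 and 3, and 1 and 2, and after quantile normalization 1 and 0, and 3 and 0. MYL2, the most abundant, averaged 28076.5 RPKM in PH-failure and 23055 RPKM in low PAP, and ACTC1 3599 and 7032 RPKM. The fibroblast markers summed to 1061 to 1710 RPKM in PH-failure, 727 to 1338 RPKM in PH-healthy and 734 to 984 RPKM in low PAP. Of these 10 markers, 7 were called higher in PH-failure and 6 in PH-healthy. Over all tested genes, 28% and 26.6% were called higher there, and 5.79% and 8.15% lower. The endothelial markers summed to 203 to 284 RPKM in PH-failure, 190.0 to 212 RPKM in PH-healthy and 115 to 204 RPKM in low PAP. Atrial muscle markers summed to 433 to 1847 RPKM in PH-failure, 548 to 883 RPKM in PH-healthy and 3096 to 6781 RPKM in low PAP, a sum carried by MYL7 alone (means of 899.9 RPKM in PH-failure, 652 RPKM in PH-healthy and 4812 RPKM in low PAP). Of the 6 atrial markers tested, 1 was called higher and 1 lower in PH-failure, and 1 lower in PH-healthy, with list medians of 0.30 and 0.20. The part of these shifts in the values of the 8 genes was not tested.

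CKMT2, the sarcomeric mitochondrial creatine kinase (ENSBTAG00000001003, chromosome 7, 83554315 to 83579633), was at 798, 730.2 and 521 RPKM in PH-failure and at 698, 637 and 762 RPKM in PH-healthy. The low-PAP libraries ran from 742 over a median of 801 to 857 RPKM. A single library of each PH group lay inside the low-PAP range and the other 4 lay below it. The log2 fold change was -0.25 ± 0.14 in PH-failure (95% interval -0.54 to 0.05, limma adjusted p = 0.165) and -0.20 ± 0.14 in PH-healthy (-0.49 to 0.10, adjusted p = 0.274). Without PH-failure replicate 3 the PH-failure value was -0.06 (adjusted p = 0.701, within 0.0389 to 0.987 over its alternatives). After median-ratio scaling the PH-failure value was -0.52 and passed (adjusted p = 0.0389), while after quantile normalization it was -0.0039 and that of PH-healthy was 0.19, which is a change of sign.

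CKB, the brain-type subunit (ENSBTAG00000035998, chromosome 21, 69809416 to 69812653), was at 14.3, 5.38 and 2.58 RPKM in PH-failure, 11.6, 13.1 and 8.19 RPKM in PH-healthy and 3.61 to 15.9 RPKM, with a median of 8.36, in low PAP. The 3 groups overlapped, and PH-failure alone spread from near the top of the 12 libraries to the bottom. Its log2 fold change was -0.31 ± 0.44 in PH-failure (limma adjusted p = 0.598) and 0.43 ± 0.44 in PH-healthy (adjusted p = 0.456). The PH-failure value changed sign without replicate 3, to 0.18. CKB shares much of its coding sequence with CKM. The sources used here do not say how reads that match both were assigned. CKB did not track CKM across libraries (r = 0.30 over 12 libraries, on log2(RPKM + 1)). CKMT1, which encodes the mitochondrial creatine kinase of other tissues, had 0 to 3 reads per library.

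Summed over CKM, CKMT2 and CKB, creatine kinase transcripts were 2660 ± 1153 RPKM in PH-failure, 2736 ± 492 RPKM in PH-healthy and 3944 ± 468 RPKM in low PAP. PH-failure replicates 1, 2 and 3 had 3779, 2724 and 1476 RPKM, and the CKM share of that sum was 78.5, 73.0 and 64.5% in them. CKM made up 72.0 ± 7.04% of that sum in PH-failure, 73.7 ± 3.41% in PH-healthy and 79.4 ± 1.60% in low PAP. CKMT2 made up 27.7 ± 7.14% in PH-failure, 25.9 ± 3.32% in PH-healthy and 20.4 ± 1.49% in low PAP. The ratio of CKM to CKMT2 within a library was 3.72, 2.72 and 1.83 in PH-failure, 2.37, 2.99 and 3.31 in PH-healthy and 3.45 to 4.48 in low PAP. All PH-healthy libraries and PH-failure replicates 2 and 3 lay below the low-PAP range, and PH-failure replicate 1 lay inside it. A ratio within a library stays the same when all its values are scaled by 1 factor, but it can change under quantile normalization. It shows unequal levels, not which gene differed.

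AK1, the cytosolic adenylate kinase (ENSBTAG00000006305, chromosome 11, 98552024 to 98561576), was at 94.2, 93.7 and 74.8 RPKM in PH-failure and at 86.2, 89.5 and 107 RPKM in PH-healthy. The low-PAP values ran from 87.8 over a median of 106 to 114 RPKM. The low end of low PAP was replicate 1 alone, and the other low-PAP libraries were at 105 RPKM or more. The log2 fold change was -0.26 ± 0.12 in PH-failure (limma adjusted p = 0.10045) and -0.15 ± 0.12 in PH-healthy (adjusted p = 0.317). Without PH-failure replicate 3 it was -0.15 in PH-failure (adjusted p = 0.378, the highest over its alternatives, which began at 0.0191). After median-ratio scaling it was -0.53 in PH-failure and passed (adjusted p = 0.0191). The ratio of CKM to AK1 was 31.5, 21.2 and 12.7 in PH-failure, 19.2, 21.3 and 23.7 in PH-healthy, and 25.7 to 32.6 in low PAP.

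SLC25A4, the ADP/ATP carrier of heart and skeletal muscle (ENSBTAG00000013208, chromosome 27, 14546020 to 14550037), was at 2339, 2329 and 1738 RPKM in PH-failure and at 2178, 1912 and 2477 RPKM in PH-healthy. In the low-PAP hearts it ran from 2736 over a median of 3020 to 3497 RPKM. It is the member for which no library of either PH group reached the low-PAP range. In PH-failure it averaged 2135 ± 344 RPKM against 3062 ± 309 RPKM in low PAP, log2 fold change -0.53 ± 0.14 (limma adjusted p = 0.0158). In PH-healthy it averaged 2189 ± 282 RPKM, log2 fold change -0.49 ± 0.14 (adjusted p = 0.0201). Of all tested genes, 3.74% lay below the low-PAP range in every PH-failure library, and 9.3% in every PH-healthy library. The PH-failure call was lost without replicate 3 (-0.39, limma adjusted p = 0.0763, within 0.00625 to 0.136 over its 19 alternatives). Both the PH-failure and the PH-healthy call were lost with the replicate number as a block. The PH-healthy call was lost without PH-healthy replicate 1 or 2 (-0.49 and -0.39, adjusted p = 0.00649 to 0.165 over its alternatives).

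The other ADP/ATP carriers were much less abundant. SLC25A6 averaged 80.9 ± 27.6 RPKM in PH-failure, 65.7 ± 6.01 RPKM in PH-healthy and 67.9 ± 12.2 RPKM in low PAP, and SLC25A5 was at 5.89 ± 0.830 RPKM in PH-failure, 6.22 ± 1.42 RPKM in PH-healthy and 6.41 ± 0.960 RPKM in low PAP. SLC25A4 made up 96.0 ± 1.68% of the 3 carriers' summed RPKM in PH-failure, 96.8 ± 0.711% in PH-healthy and 97.6 ± 0.353% in low PAP. These carriers are alike in sequence, and how reads that match several of them were assigned is unknown here, so the shares are uncertain. The ratio of CKMT2 to SLC25A4, which serve neighbouring steps at the inner membrane, was 0.341, 0.314 and 0.2997 in PH-failure, 0.320, 0.333 and 0.308 in PH-healthy, and 0.242 to 0.274 in low PAP. Every PH library lay above every low-PAP library in this ratio, PH-failure replicate 3 included. SLC25A4 by itself already lay below the low-PAP range in every PH library. Singly, 16.7% of all tested genes had PH and low-PAP libraries that did not overlap. The share of gene pairs whose ratio separates them was not computed. The ratios of CKM to CKMT2, CKM to AK1 and GATM to GAMT did overlap. The genes of the mitochondrial genome took 17.8 to 20.3% of exon reads in PH-failure, 18.3 to 20.7% in PH-healthy and 22.5 to 29.9% in low PAP, and the part of that shift in the SLC25A4 and CKMT2 values was not tested.

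**Figure D2:**
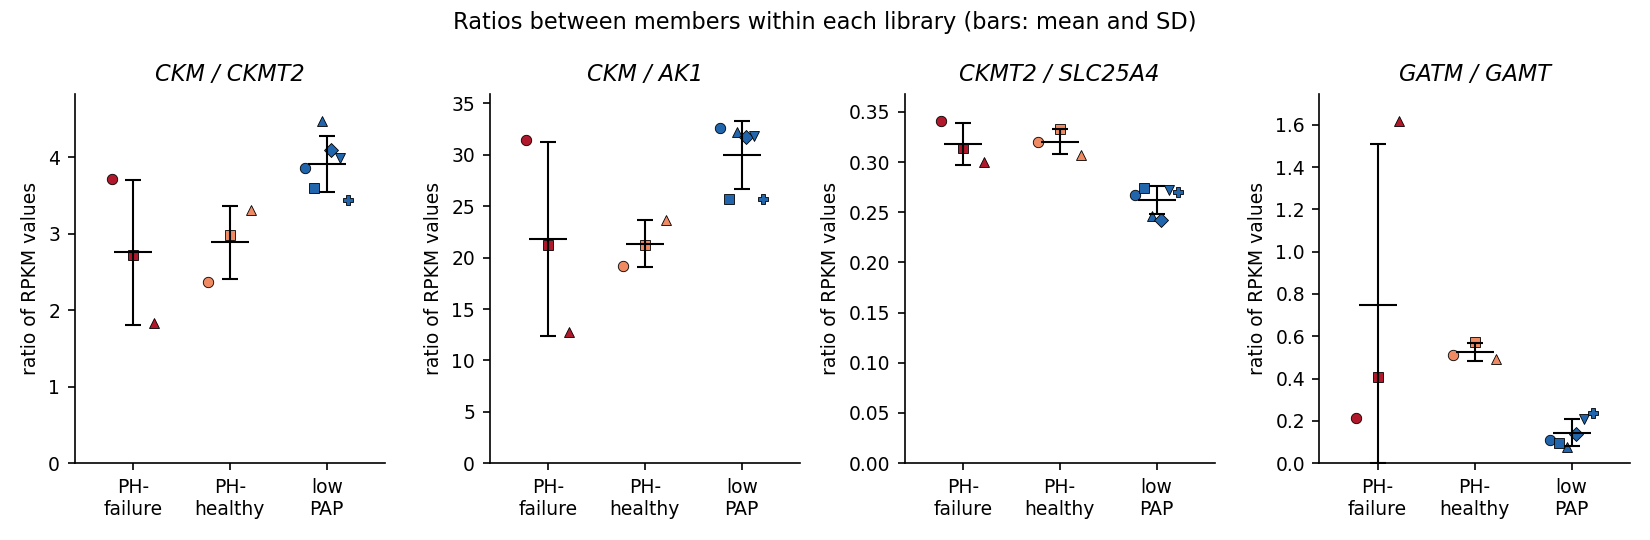
Ratios of RPKM between pairs of the 8 genes within each library, with PH-failure, PH-healthy and low PAP from left to right. Points are animals and bars are mean and SD (n = 3, 3 and 6), with the lower bar of GATM to GAMT in PH-failure (0.747 ± 0.762) ending at 0. CKMT2 to SLC25A4 lies at 0.2997 to 0.341 in the PH libraries and at 0.242 to 0.274 in low PAP. In each of the other ratios, PH-failure replicate 1 lies inside the low-PAP range.

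GATM, which makes guanidinoacetate from arginine and glycine (ENSBTAG00000005586, chromosome 10, 65325342 to 65341352), was at 5.37, 7.74 and 12.9 RPKM in PH-failure and at 9.31, 10.5 and 7.83 RPKM in PH-healthy. In low PAP it ran from 2.21 over a median of 3.04 to 6.54 RPKM. All PH-healthy libraries lay above all low-PAP ones, as was so for 25% of all tested genes, while PH-failure replicate 1 lay inside the low-PAP range. It averaged 8.67 ± 3.84 RPKM in PH-failure and 3.87 ± 2.00 RPKM in low PAP, log2 fold change 1.01 ± 0.31 (limma adjusted p = 0.0272). In PH-healthy it averaged 9.21 ± 1.33 RPKM, log2 fold change 1.16 ± 0.31 (adjusted p = 0.0150). The PH-failure call was lost without replicate 3 (0.71, adjusted p = 0.142, the highest over its 19 alternatives, which began at 0.00945) and without PH-failure replicate 2 (1.05) or low-PAP replicate 1 or 3 (0.91 each), and after quantile normalization (0.72) and median-ratio scaling (0.79). The PH-healthy call was lost without PH-healthy replicate 1 or 2 (1.15 and 1.07, adjusted p up to 0.0582, and from 0.00503, over its alternatives).

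GAMT, which methylates guanidinoacetate to creatine (ENSBTAG00000004112, chromosome 7, 45433859 to 45436865), was at 25.2, 19.0 and 7.96 RPKM in PH-failure and at 18.3, 18.4 and 15.8 RPKM in PH-healthy. In low PAP it ran from 20.2 over a median of 27.1 to 29.5 RPKM. All PH-healthy libraries lay below low PAP, and PH-failure replicate 1 lay inside its range. The log2 fold change was -0.70 ± 0.25 in PH-failure (limma adjusted p = 0.0485) and -0.55 ± 0.25 in PH-healthy, which did not pass (adjusted p = 0.102). Without PH-failure replicate 3 the PH-failure value was -0.24 (adjusted p = 0.255; 0.00810 to 0.255 over its 19 alternatives, of which 7 kept the call). It was also lost without any 1 of the other libraries except PH-failure replicate 1 and low-PAP replicate 1 (-0.82 to -0.66). Without that same library, which then no longer adds to the shared estimate of spread, GAMT and CKM passed in PH-healthy (adjusted p = 0.00774 and 0.0138). The ratio of GATM to GAMT was 0.213, 0.408 and 1.62 in PH-failure, 0.509, 0.572 and 0.495 in PH-healthy, and 0.0788 to 0.236 in low PAP. PH-failure replicate 1 lay inside the low-PAP range of this ratio and the other PH libraries above it.

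SLC6A8, the creatine transporter (ENSBTAG00000009959, chromosome X, 39828310 to 39835611), was at 13.6, 18.4 and 19.2 RPKM in PH-failure and at 19.7, 16.1 and 24.9 RPKM in PH-healthy. Low PAP spanned levels from 9.50 over a median of 12.3 to 21.0 RPKM. The groups overlapped, with low-PAP replicates 4 and 6 at 17.4 and 21.0 RPKM among the PH libraries. The log2 fold change was 0.34 ± 0.24 in PH-failure (95% interval -0.18 to 0.86, limma adjusted p = 0.281) and 0.57 ± 0.24 in PH-healthy (0.04 to 1.09, adjusted p = 0.0844). In PH-healthy it passed without low-PAP replicate 6 (0.70, adjusted p = 0.0219; up to 0.286 over its alternatives). SLC16A12, a creatine carrier that lets creatine leave cells in other species, had 0 to 5 reads per library.

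**Figure D3:**
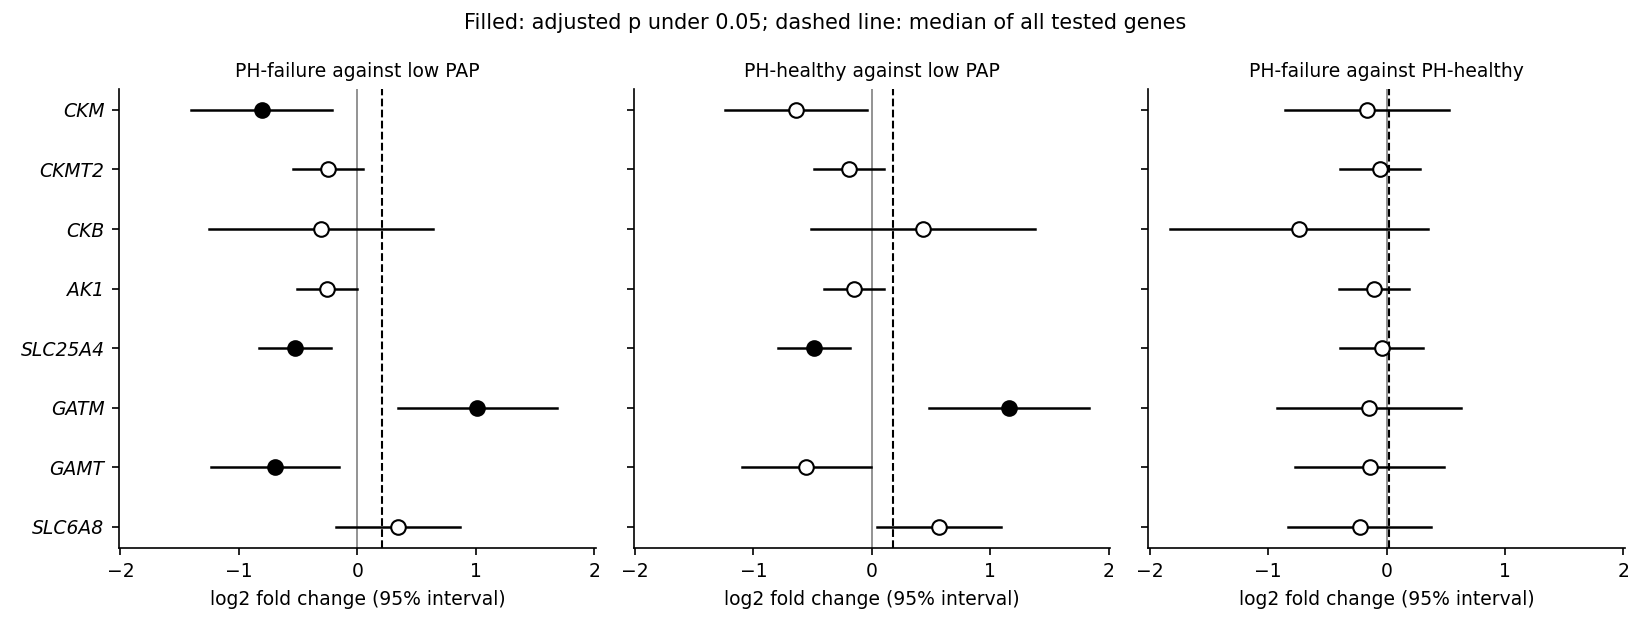
Log2 fold change of the 8 genes on log2(RPKM + 1), with 95% intervals, for PH-failure against low PAP, PH-healthy against low PAP and PH-failure against PH-healthy. Filled points passed at an adjusted p under 0.05, the grey line marks 0 and the dashed line the median of all tested genes (0.21, 0.18 and 0.02). CKM, SLC25A4, GATM and GAMT are filled in the left panel, GATM and SLC25A4 in the middle one and none in the right one.

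Scaling bears on these counts, because most tested genes lay above 0. Over all tested genes the log2 fold changes had a median of 0.21 in PH-failure and 0.18 in PH-healthy against low PAP, and over the 8 genes of -0.28 and -0.18. Quantile normalization brought the medians of all genes to -0.03 and -0.04, and median-ratio scaling to -0.01 and -0.01. After median-ratio scaling, CKM was at -1.08, SLC25A4 at -0.80, GAMT at -0.95 and GATM at 0.79 in PH-failure, and 5 of the 8 genes were called lower and none higher, where 1435 genes were higher and 1785 lower of 11374. After quantile normalization, GAMT (-0.87) and SLC25A4 (-0.50) were called lower and none of the 8 higher, where 1133 genes were higher and 1418 lower. In PH-healthy, 1 of the 8 was higher and 3 lower after median-ratio scaling (1721 and 1968 of all genes), and 1 and 1 after quantile normalization (1424 and 1622). SLC25A4 was called under each of these scalings in both comparisons.

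The directions of the 4 called genes were the same in both library series. CKM averaged 2478 RPKM in PH-failure, 1652 RPKM in PH-healthy and 3011 RPKM in low PAP in series 56, and 952 RPKM in PH-failure, 2213 RPKM in PH-healthy and 3262 RPKM in low PAP in series 55. SLC25A4 averaged 2334 RPKM in PH-failure, 2178 RPKM in PH-healthy and 3003 RPKM in low PAP in series 56, and 1738 RPKM in PH-failure, 2194 RPKM in PH-healthy and 3120 RPKM in low PAP in series 55. For GAMT the PH-failure, PH-healthy and low-PAP means were 22.1, 18.3 and 24.1 RPKM in series 56, and 7.96, 17.1 and 28.4 RPKM in series 55. The PH-failure, PH-healthy and low-PAP means of GATM were 6.56, 9.31 and 2.77 RPKM in series 56, and 12.9, 9.16 and 4.97 RPKM in series 55. PH-failure replicate 3 is the only library of its group in series 55, so that the larger distance there cannot be told apart from that animal.

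**Figure D4:**
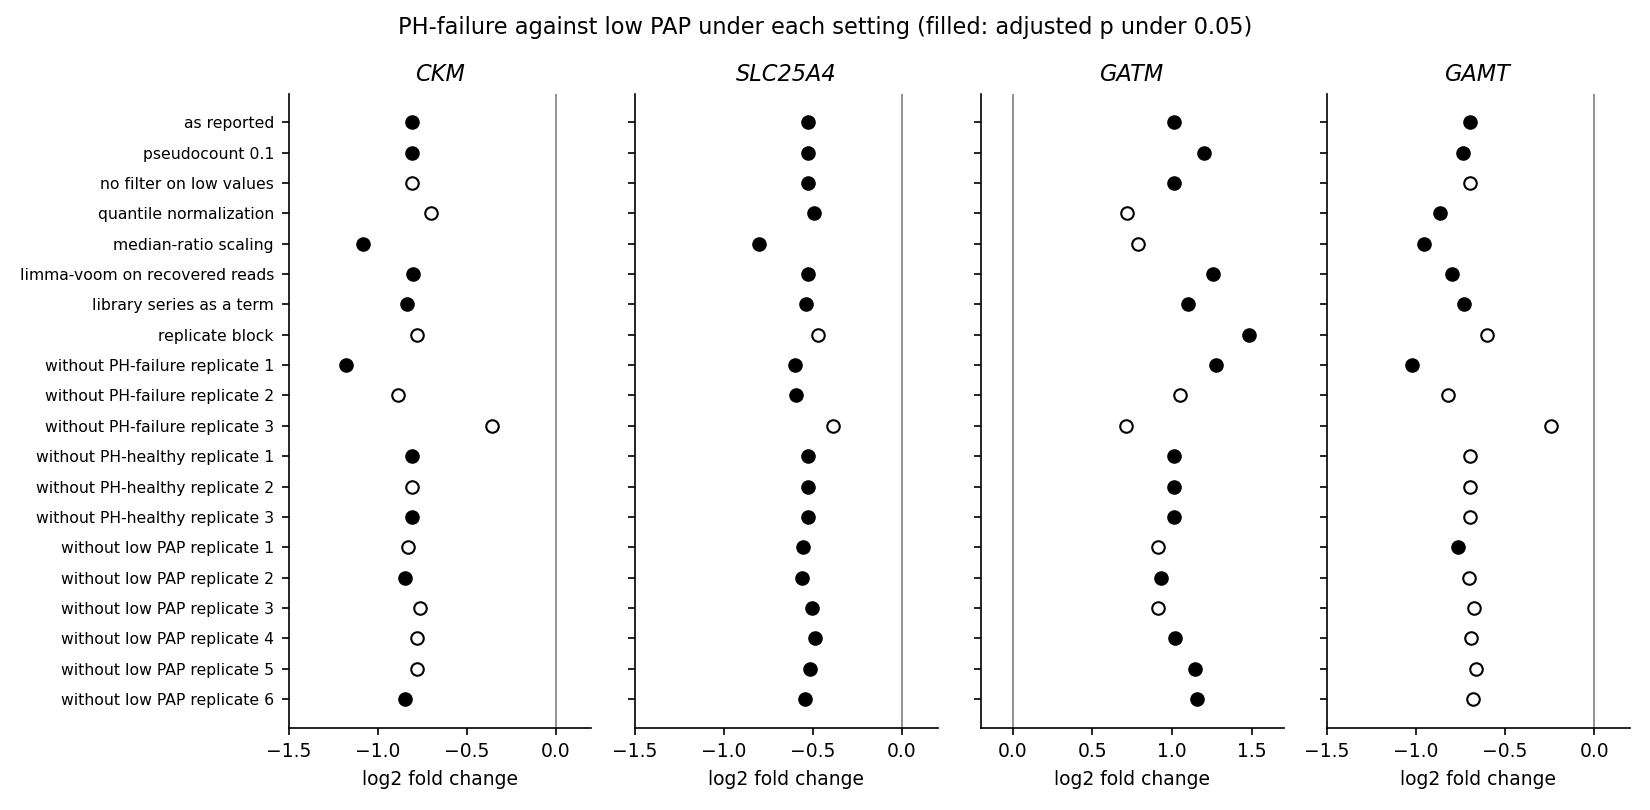
Log2 fold change in PH-failure against low PAP of CKM, SLC25A4, GATM and GAMT, as reported (top) and under each of 19 other settings, 1 per line. Filled points passed at an adjusted p under 0.05. All 4 genes keep their direction throughout, and none is filled without PH-failure replicate 3, where the values are -0.36, -0.39, 0.71 and -0.24.

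The comparison of PH-failure with PH-healthy asks what differed between animals with and without clinical failure at a raised pressure. None of the 8 genes passed (limma adjusted p = 0.9995 for each, 0 with an unadjusted p under 0.05), and 1 of 11374 tested genes did (0.00879%). The libraries of the 2 groups overlapped for each of the 8, whereas they did not for 5.74% of all tested genes (2.13% lower in PH-failure). The gene called, the BPHL row ENSBTAG00000045888, was at 7.26 RPKM in PH-failure and 17.8 RPKM in PH-healthy. By limma-voom on the recovered reads no gene passed, and 308 genes had an unadjusted p under 0.05 in limma on log2(RPKM + 1). The 95% intervals of the log2 difference were -0.85 to 0.52 for CKM, -0.39 to 0.29 for CKMT2, -1.83 to 0.35 for CKB, -0.40 to 0.19 for AK1 and -0.39 to 0.31 for SLC25A4. They were -0.92 to 0.63 for GATM, -0.77 to 0.49 for GAMT and -0.83 to 0.38 for SLC6A8. The narrowest of these, that of AK1, still reaches -0.40 on the log2 scale, so that a likeness of the PH groups is not shown.

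With both PH groups together against low PAP, CKM (-0.72 ± 0.23, limma adjusted p = 0.0190), GAMT (-0.62 ± 0.21, adjusted p = 0.0243) and SLC25A4 (-0.51 ± 0.11, adjusted p = 0.00412) fell and GATM (1.09 ± 0.25, adjusted p = 0.00489) rose. That is 4 of 8, where 47.7% of all tested genes were called, 37.3% higher and 10.4% lower. SLC25A4 alone had all PH libraries outside the low-PAP range, as had 16.7% of all tested genes (2.93% below it). The same 4 were called without PH-failure replicate 3, at -0.50, -0.40, -0.44 and 0.94. GATM was called under all 19 alternatives, CKM and SLC25A4 under 18 and GAMT under 16, its call being lost without PH-healthy replicate 3 or low-PAP replicate 5 (-0.59 each). In the authors' deposited table, for high against low PAP, SLC25A4 had a fold of -1.35 (false discovery rate 0.000649) and GAMT a fold of -1.38 (false discovery rate 0.0467). The authors' deposited table gave CKM a fold of -1.40 (false discovery rate 0.0837) and GATM a fold of 2.05 (false discovery rate 0.207). A minus sign there stands for a lower value at high PAP. The fold in the authors' deposited table rests on group means that are not those of the 12 libraries used here, so the samples behind it may be others.

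Across the 12 libraries CKM, CKMT2, GAMT, AK1 and SLC25A4 moved together, with Pearson correlations of log2(RPKM + 1) of 0.80 to 0.95 between any pair of them. GATM ran opposite to CKM (r = -0.75) and SLC25A4 (r = -0.76). SLC6A8 and GATM were at r = 0.64. These points share the group differences, the scaling and the distance of PH-failure replicate 3, and the correlations are a description. The tested genes most like CKM were PXMP2 (r = 0.98), GCAT (0.98) and NDUFA9 (0.97), and 2 of them, NDUFA9 (0.97) and GCAT (0.97), were also among the nearest to CKMT2, after DHRS11 (0.98). For SLC25A4 they were MGC152484 (0.97), SUCLA2 (0.96) and MRPL22 (0.96), and for AK1 SDHD, PECR and GBAS (0.92 each). For GAMT they were TIMM13 (0.97), SPAG7 (0.96) and OCIAD1 (0.95). For GATM they were FBXO32 (0.93), a ubiquitin ligase of muscle, C10orf71 (0.92) and TMEM110 (0.92). For SLC6A8 they were RRAGD (0.97), MAPRE2 (0.94) and PITPNA (0.94), and for CKB GPI, GPAA1 and PTGDS (0.92 each).

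Genes that work beside the 8 were taken from lists made by function. The counts of each list stand beside the shares of all tested genes. These were 28% higher and 5.79% lower in PH-failure, and 26.6% and 8.15% in PH-healthy. Of the 5 tested adenylate kinases other than AK1, 2 rose and 2 fell in PH-failure, with a median log2 fold change of -0.20. AK6 was at 36.3 ± 6.42 RPKM in PH-failure against 54.4 ± 9.82 RPKM in low PAP (-0.57 ± 0.15, limma adjusted p = 0.0158), a call lost without PH-failure replicate 3 (up to 0.0818 over its alternatives), and it fell in PH-healthy too (-0.65, adjusted p = 0.00769). AK3, of the mitochondrial matrix, rose in both, and AK4 passed as higher in PH-failure, with 1.46, 1.53 and 8.38 RPKM in the PH-failure libraries and 0.523 to 1.47 RPKM in low PAP. Neither the AK3 nor the AK4 call in PH-failure held without replicate 3, where AK4 had a log2 fold change of 0.36, against 1.00 with it. In PH-failure or PH-healthy alone, no rise of AK3 or AK4 held after quantile normalization or median-ratio scaling. With both PH groups together AK3 rose (0.65), and its call was lost only after median-ratio scaling. In PH-healthy, 1 of the 5 rose and 2 fell.

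Of the 9 tested carriers and outer membrane pores, ATPIF1, the inhibitor of the ATP synthase, alone fell in PH-failure, and it alone fell in PH-healthy. Its call was kept by 9 of 19 alternatives in PH-failure and by 11 of 19 in PH-healthy. After quantile normalization neither call held. Among other settings, the PH-failure call was lost without PH-failure replicate 2 or 3. The PH-healthy call was lost without any 1 of the PH-healthy libraries. VDAC1, a pore of the outer membrane, was at 479 RPKM in PH-failure and 464 RPKM in low PAP (limma adjusted p = 0.749). Of the 7 tested nucleoside diphosphate kinases, which pass phosphate from ATP to other nucleotides, 1 rose and 2 fell in PH-failure, and none rose and 2 fell in PH-healthy. NME5 was at 1.36 ± 0.633 RPKM in PH-failure, 0.814 ± 0.0963 RPKM in PH-healthy and 3.87 ± 1.32 RPKM in low PAP, and both calls held under all 19 alternatives. NME4, the mitochondrial member, fell in both PH groups and NME1 rose in PH-failure (0.83 ± 0.22).

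Of the 14 tested genes of AMP handling and AMPK subunits, 7 rose and 1 fell in PH-failure, and 5 and 1 in PH-healthy. Their median log2 fold changes were 0.42 and 0.31. Of all tested genes, 28% rose in PH-failure and 26.6% in PH-healthy. After quantile normalization the counts of this list were 2 and 2, and 3 and 3. After median-ratio scaling they were 2 and 3, and 4 and 3. PRKAB1, a beta subunit of AMPK, was at 11.5 ± 1.35 RPKM in PH-failure against 7.56 ± 0.480 RPKM in low PAP, a call that held under all 19 alternatives. Its call in PH-healthy was kept by 15 of 19, and was lost after quantile normalization and median-ratio scaling and without PH-healthy replicate 1. PRKAG2, the gamma subunit of AMPK best known from heart disease, was at 37.5 ± 5.24 RPKM in PH-healthy against 20.8 ± 3.13 RPKM in low PAP, which also held under all of them. In PH-failure its call was kept by 15 of 19, and was lost after median-ratio scaling and without PH-failure replicate 2 or 3. ADSSL1, the muscle enzyme that leads IMP back to AMP, fell in PH-failure (-0.78 ± 0.25, limma adjusted p = 0.0311), a call lost without PH-failure replicate 3 or low-PAP replicate 4 or 5 (0.00874 to 0.147 over its alternatives).

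Around creatine synthesis, none of the 7 tested genes of methyl donor supply was called in PH-failure by limma on log2(RPKM + 1) or by limma-voom, with MAT2B alone at an unadjusted p under 0.05. After quantile normalization 2 of the 7 fell there, and after median-ratio scaling 1. In PH-healthy AHCYL2 rose and MAT2B fell. Of the 7 tested genes of arginine and glycine supply, 1 rose and 2 fell in PH-failure, and 2 rose and 2 fell in PH-healthy. SLC7A2, a carrier of cationic amino acids such as arginine, was at 2.14 ± 1.14 RPKM in PH-failure, 2.11 ± 0.736 RPKM in PH-healthy and 0.363 ± 0.146 RPKM in low PAP. SHMT1, which interconverts serine and glycine, was at 1.88 ± 0.998 RPKM in PH-failure, 1.85 ± 0.708 RPKM in PH-healthy and 4.88 ± 1.11 RPKM in low PAP. All 4 of these calls held under all 19 alternatives. ASS1, which makes the precursor of arginine, fell in both PH groups and OAT rose in PH-healthy, and each of those calls was lost under several settings.

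Of the 5 genes for proteins that anchor creatine kinase in the sarcomere, the M-band proteins MYOM1, MYOM2 and MYOM3 and the giant protein TTN rose in each PH group, and FHL2 passed in neither. MYOM3 was at 76.8 ± 28.4 RPKM in PH-failure, 85.9 ± 10.4 RPKM in PH-healthy and 31.9 ± 11.9 RPKM in low PAP. MYOM1 was at 177 ± 24.7 RPKM in PH-failure, 177 ± 13.4 RPKM in PH-healthy and 105 ± 25.4 RPKM in low PAP. The calls of MYOM1 and MYOM3 held under all 19 alternatives in both comparisons. The median of the list was 0.77 in PH-failure and 0.78 in PH-healthy, beside 0.21 and 0.18 for all tested genes. After median-ratio scaling 2 of the 5 rose in PH-failure and 3 in PH-healthy, MYOM2 passing in neither and TTN not in PH-failure. Quantile normalization left 4 of 5 higher in each. Of the 10 tested regulators of creatine kinase and mitochondrial genes, 4 rose in PH-failure and 3 in PH-healthy and none fell, with medians of 0.22 and 0.27. After quantile normalization 2 rose and 1 fell in PH-failure, and 2 rose in PH-healthy. MEF2C, a muscle transcription factor, was at 8.30 ± 0.919 RPKM in PH-failure, 10.4 ± 1.97 RPKM in PH-healthy and 4.09 ± 1.29 RPKM in low PAP. ESRRG, a nuclear receptor that acts on genes of energy metabolism, was at 4.56 ± 0.858 RPKM in PH-failure, 5.52 ± 1.42 RPKM in PH-healthy and 1.99 ± 0.765 RPKM in low PAP. The calls of MEF2C and ESRRG held under all 19 alternatives. PPARGC1A, their coactivator, was at 11.9 RPKM in PH-failure and 14.5 RPKM in low PAP and did not pass (adjusted p = 0.154). No gene of any of these lists was called in PH-failure against PH-healthy.

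Without PH-failure replicate 3, the numbers called higher and lower in PH-failure against low PAP were 0 and 1 for the adenylate kinases, 2 and 0 for AMP handling and AMPK, 0 and 1 for the nucleoside diphosphate kinases, 1 and 0 for methyl donor supply, 1 and 1 for arginine and glycine supply, 3 and 0 for the anchors and 2 and 0 for the regulators. None of the carriers and pores was called. In that setting 1540 of all 11374 tested genes were called, against 3848 with all libraries.

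**Figure D5:**
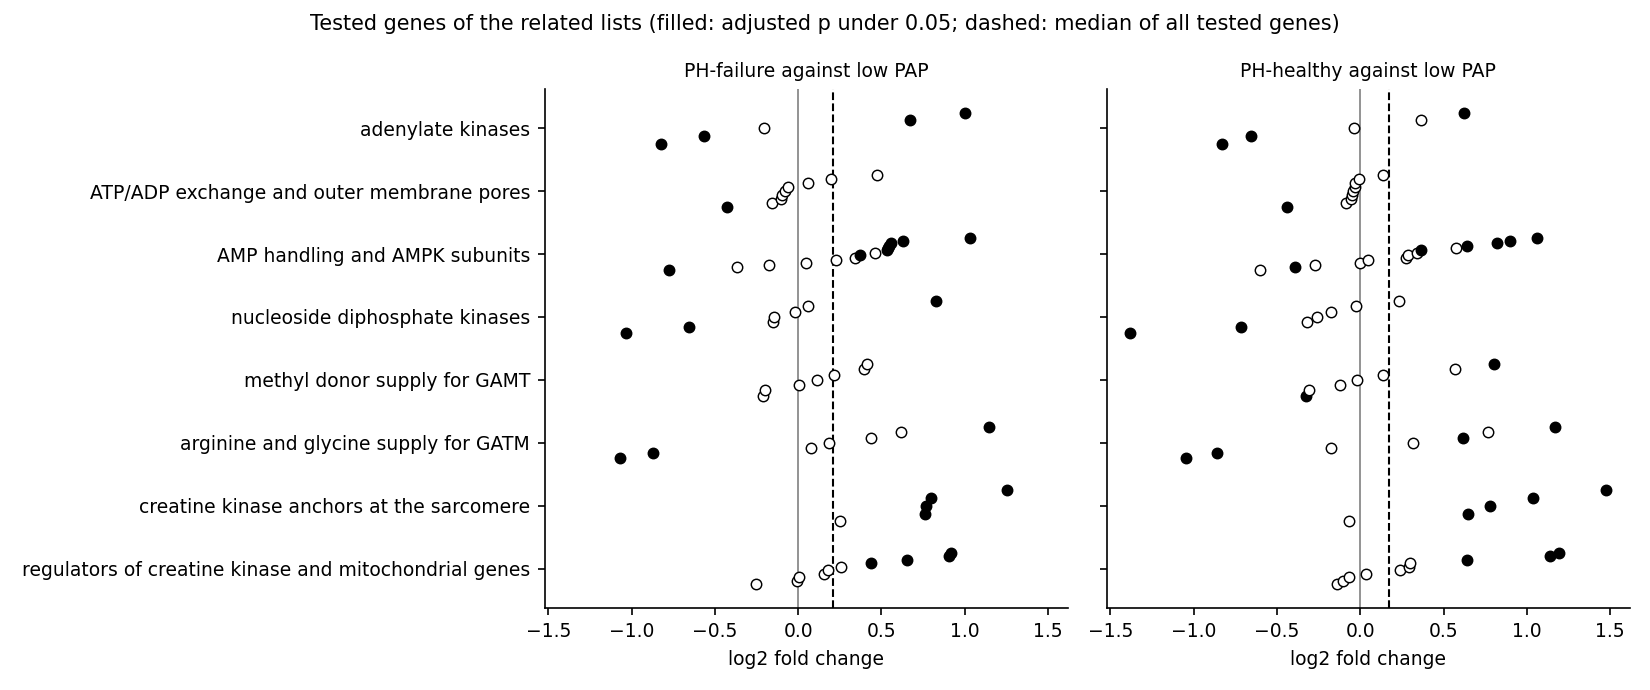
Log2 fold change of every tested gene of the 8 lists around creatine kinase and creatine supply, in PH-failure against low PAP (left) and PH-healthy against low PAP (right). Each point is a gene, filled points passed at an adjusted p under 0.05, and the dashed line is the median of all tested genes (0.21 and 0.18). Of the anchors at the sarcomere, 4 of 5 genes are filled in each panel, all to the right of the dashed line.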

How the data were processed

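Per the labels' protocols, total RNA of 12 right ventricles was isolated with Trizol and sequenced from Illumina libraries. The authors deposited RPKM per gene and library, normalized to exon length and mapped reads per the file headers, with Ensembl identifiers and positions, whose starts are printed from 1. The authors also deposited a fold for high against low PAP, a signed score in which a value below 1 is written as minus its inverse, with, as the file headers say, a p-value and a false discovery rate. Genome build, aligner, counting method, strand use and the authors' test were not given in the sources used here.

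The planned test was limma-trend on log2(RPKM + 1), with another test set only for counts. The deposited values are RPKM, so limma-trend was used. Whole reads were recovered from the RPKM steps within a tolerance of 0.05 reads in all 11374 tested genes (median 370.0 reads per gene and library). limma 3.58.1 in R 4.3.3 (statmod 1.5.0) was fitted to log2(RPKM + 1) in 1 model of 3 groups over 12 libraries, with robust moderation and a variance trend. P-values were Benjamini-Hochberg adjusted over all tested genes. The method was tested on simulated data. Plots were drawn with matplotlib 3.10.9, and tables made with pandas 2.3.3 and numpy 2.4.6 in Python 3.11.15. The alternatives were a pseudocount of 0.1, no filter, quantile and median-ratio scaling, limma-voom on recovered reads, a term for the library series, a replicate block, and each library left out. Same-numbered animals differ, so numbers do not pair libraries.

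The 8 genes and the lists were chosen with earlier results of these data known, so their counts are not independent support. Named are all 8 genes, the 3 tested genes of highest correlation with each, and up to 3 called genes of smallest p per list and comparison. VDAC1, ADSSL1, FHL2, PPARGC1A and the genes lost under several settings were added after their values were seen, and not all genes the rule allows are named. No 2 libraries of a group agreed within sampling noise. MYH6 of the heart muscle list is not a symbol of the table.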

Additional observations from a re-analysis of the deposited data

Results flagged for a closer look

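In 31 groups of 6 values the sample farthest from the others was checked by its gap. The groups were single genes, their sums, shares and ratios, marker sums and library measures over the 6 low-PAP libraries. In 3 of the groups that sample stood apart beyond the 95% critical value of Dixon's ratio. Chance gives about 1 in 20 such groups. All 3 concern low-PAP replicate 1. Its AK1 level of 87.85 RPKM was the lowest of its group, with the others at 105.2 to 113.8 RPKM. Its red blood cell marker sum of 9.297 RPKM was the highest, with the others at 2.923 to 4.986 RPKM. The genes of the mitochondrial genome took 29.87% of its exon reads, the highest share, with the others at 22.52 to 24.56%. It also had the lowest levels of GATM (2.207 RPKM) and SLC6A8 (9.50 RPKM) of the 12 libraries. Neither level stood apart by Dixon's ratio, and low-PAP replicate 3 was close to both (2.210 and 9.92 RPKM). Without low-PAP replicate 1, AK1 passed for both PH groups against low PAP (log2 fold change -0.26), and GATM did not pass in PH-failure (0.91).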

How the results depend on the processing

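For the 8 genes in 4 comparisons, 197 values under the 7 settings that keep all libraries stayed on the same side of the threshold with the same sign, 12 lost a call, 8 gained one and 7 changed sign, and no called value changed sign. With each library left out in turn these numbers were 335, 28, 7 and 14. The cause was not tested for any of them, beyond the fewer samples of a left-out library and the larger number of genes tested without a filter.

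In PH-failure against low PAP, 3848 genes were called, and 2551 after quantile normalization, 1379 with a replicate block, and 1540 to 4669 with 1 library left out (2367 without PH-failure replicate 2, 1540 without replicate 3). Of the 8 genes 4 were called, and 2 with no filter, 2 after quantile normalization, 1 with the replicate block and 0 to 4 with 1 library left out: 0 without PH-failure replicate 3, 1 without PH-failure replicate 2 or low-PAP replicate 3, and 2 without PH-healthy replicate 2 or low-PAP replicate 1, 4 or 5. In PH-healthy against low PAP, 3951 genes were called, 1834 with the replicate block and 1890 to 4643 with 1 library left out, with 2383 and 2248 without PH-healthy replicates 2 and 3. Of the 8 genes 2 were called, 4 after median-ratio scaling and 0 to 4 with 1 library left out: 0 without PH-healthy replicate 1 or 2, and 4 without PH-failure replicate 3. In PH-failure against PH-healthy 1 gene was called, 0 with limma-voom, 0 with the library series as a term, 0 with the replicate block and 0 to 4 with 1 library left out, and 0 of the 8 in every setting. For both PH groups 5421 genes were called, 3027 with the replicate block and 4422 to 5977 with 1 library left out, and of the 8 genes 4, 2 with the block and 3 to 5.

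Values that changed sign were, in PH-failure against low PAP, CKB with the block (0.11) and without PH-failure replicate 3 (0.18; lowest with 1 library left out, -0.87), and in PH-healthy CKMT2 after quantile normalization (0.19). In PH-failure against PH-healthy they were, without PH-failure replicate 3, CKM (0.28), CKMT2 (0.13), GAMT (0.31), AK1 (0.0044) and SLC25A4 (0.10), without PH-healthy replicate 3, CKM (0.0040), CKMT2 (0.011) and SLC25A4 (0.052), and GATM with the series term (0.025) and without PH-failure replicate 1 (0.12). Their lowest values there with 1 library left out were -0.53 (CKM), -0.18 (CKMT2), -0.46 (GAMT), -0.44 (GATM), -0.16 (AK1) and -0.13 (SLC25A4). For both PH groups they were CKMT2 after quantile normalization (0.094) and CKB after quantile normalization (-0.19), after median-ratio scaling (-0.16), with limma-voom (-0.025), and without PH-failure replicate 1 (-0.22), PH-healthy replicate 2 (-0.0028), or low-PAP replicate 1 (-0.12) or 3 (-0.060).

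Same-numbered animals of different groups share only a number. The correlations of their deviations were -0.257 to 0.193, with 2 of 9 over 0.1, and in 2 of 18 pairings of a library with another group was the best match its own number. With the replicate block GATM stayed called in PH-failure, and CKM, GAMT and SLC25A4 did not. In PH-healthy it called GATM and SLC6A8 and not SLC25A4. The groups of 3 animals and the depth of 101 to 166755 reads per gene limit the intervals.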
